A study of Mus musculus with 12 samples.

Results

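The 10 genes described here are the 4 mouse genes for fibroblast growth factor (FGF) receptors, Fgfr1, Fgfr2, Fgfr3 and Fgfr4, and 6 genes for FGF ligands with known roles in growth plate and bone, Fgf1, Fgf2, Fgf7, Fgf9, Fgf10 and Fgf18. They were picked by symbol from the 28244 genes of the expression table, and all 10 passed the filter on low values that left 17674 genes for testing. Cartilage progenitors were taken from the ends of the femurs and tibiae of C57/BL6 pups that were 5 or 6 days old, pelleted, and kept for 7 days in chondrogenic medium. Pellets were harvested then (D7) or after 1, 3 or 21 more days in osteogenic medium (D8, D10 and D28), with 3 RNA-seq libraries per time point and 12 in all. No group carried a mutation or a transgene, and no group stayed in chondrogenic medium beyond D7, so days in culture and the change of medium cannot be told apart. The sources used here do not say whether the 3 libraries of a time point came from separate animals or separate cultures, so the p-values measure the spread between these libraries, which may be technical.

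The deposited value of a gene is a log2 level, the log2 of its equalized read count plus 1. All levels below are on that scale, means are given ± SD with n = 3 libraries, and a difference in level is a log2 fold change. Differences between time points were tested with limma, and a gene was called where the log2 fold change reached at least 1 in either direction with a Benjamini-Hochberg adjusted p under 0.05 over all genes tested. Relative depth, read from the lowest levels, ran from 0.730 to 1.31 among libraries, and the D10 libraries were shallower than each of the D28 libraries. A single read stood at a level between 0.50 and 1.81, and 3 reads at up to 2.87, so levels under that carry little more than counting error. The sorted values are nearly the same in every library, as after quantile normalization, so the highest genes sit on fixed ranks. All 10 markers of the chondrocyte list were measured. Col2a1, the main cartilage collagen, held the largest value of every library at D7, D8 and D28 and the value 19.87 in all D10 libraries, so the summed level of that list mostly gives its rank. Mean levels of Acan, the main cartilage proteoglycan, lay between 16.45 and 17.82, and those of Sox9, the chondrocyte transcription factor, between 12.11 and 12.44. The summed level of 5 endothelial markers lay between 4.04 and 7.75. At D8 against D7, 2 of them, Pecam1 and Kdr, were called higher and 0 lower, where 3.23% of all genes tested were higher. At D28 against D8, 0 were called higher and 2 lower, where 9.70% of all genes were lower. In pellets measured as bulk RNA, fewer cells of a type and less RNA per cell cannot be told apart.

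Most FGFs are secreted signalling proteins. A secreted FGF binds a receptor tyrosine kinase together with heparan sulfate, the receptors pair and phosphorylate each other, and the signal passes through adaptor proteins to the RAS and ERK kinases, which induce ETS transcription factors and their own inhibitors of the Sprouty and dual-specificity phosphatase families. In the growth plate Fgfr3 is the receptor of proliferating chondrocytes, where its activity restrains bone elongation, Fgfr1 is known from hypertrophic chondrocytes and bone-forming cells, and Fgfr2 from condensing mesenchyme, perichondrium and osteoprogenitors. Fgf9 and Fgf18 are the ligands best known for acting on these receptors in the growth plate, Fgf2 is stored in cartilage and bone matrix, and Fgf7 and Fgf10 are mesenchymal ligands whose main receptor is the epithelial form of Fgfr2.

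At D10 against D7, Fgfr2, Fgfr3 and Fgfr4 were lower and Fgf2 and Fgf10 were higher, so 5 of the 10 members were called, where 18.9% of all genes tested were called, 8.50% higher and 10.4% lower. At D10 against D8 the call was made for the same number, 5 of 10, against 9.66% of all genes (4.08% higher, 5.58% lower), with Fgfr2, Fgfr3 and Fgfr4 lower and Fgf9 and Fgf10 higher. At D28 against D10 Fgfr2, Fgfr3 and Fgfr4 were higher and Fgf9 was lower, 4 of 10 members against 27.5% of all genes (13.8% higher, 13.7% lower). A single member, Fgf1, was called at D8 against D7, lower, where 7.04% of all genes were called, 3.23% higher and 3.81% lower. At D28 against D7 the members called were Fgf10, higher, and Fgfr4, lower, which is 2 of 10 against 17.3% of all genes (8.63% higher, 8.66% lower). At D28 against D8 Fgfr2, Fgf1 and Fgf10 were higher and Fgfr4 was lower, 4 of 10 against 19.7% of all genes (10.0% higher, 9.70% lower). These 6 comparisons share libraries and are not separate pieces of evidence. In the test for any difference among the 4 time points, 9 of the 10 members had an adjusted p under 0.05, as did 64.6% of all genes tested, and Fgf18 was the exception (adjusted p = 0.51).

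**Figure D1:**
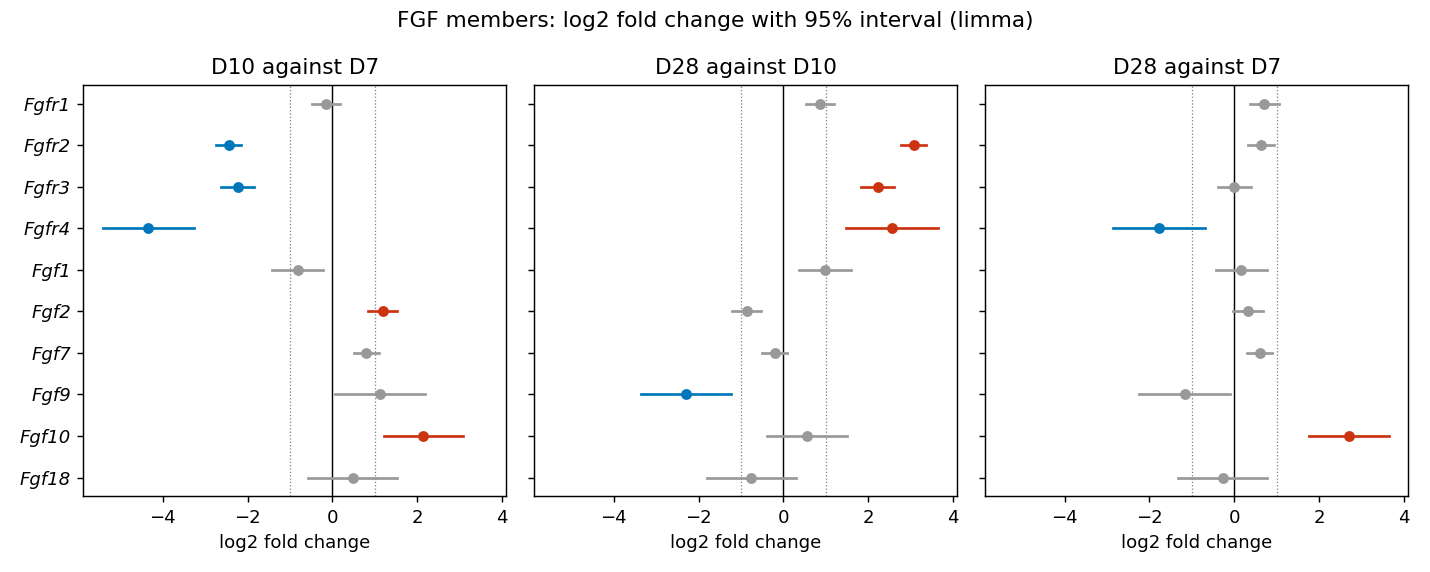
Log2 fold change (horizontal axis) of each of the 10 members in 3 comparisons, with the 95% confidence interval from limma; the dotted lines mark a log2 fold change of 1 in each direction, red points were called higher, blue points lower and grey points were not called. Fgfr2, Fgfr3 and Fgfr4 lie to the left at D10 against D7 and to the right at D28 against D10, and the interval of Fgfr3 at D28 against D7 is centred near 0.

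Fgfr2 was the receptor gene that separated the time points most fully. Its GENCODE M21 model spans chr7:130162451-133123350 on the minus strand of GRCm38 and reaches far upstream of the RefSeq window printed below. The protein is the receptor for Fgf7 and Fgf10 in its epithelial form and for Fgf2, Fgf9 and Fgf18 in its mesenchymal form. Its level in the 3 libraries was 12.47, 12.11 and 12.65 at D7, 11.74, 11.54 and 11.82 at D8, 9.74, 10.09 and 10.07 at D10, and 12.93, 13.18 and 13.02 at D28. The libraries of the 4 time points did not overlap in any of the 6 comparisons, with every D10 library lowest and every D28 library highest. Groups without overlap are common in these data, with 37.1% of all genes tested at D8 against D7, 44.0% at D10 against D8, 47.5% at D10 against D7, 59.4% at D28 against D10, 46.9% at D28 against D7 and 54.2% at D28 against D8. The mean fell from 12.41 ± 0.27 at D7 to 9.97 ± 0.19 at D10, a log2 fold change of -2.44 (SE 0.14, adjusted p = 5.2e-09, limma), or 5.43-fold. From D10 to D28 it rose 8.44-fold to 13.04 ± 0.13 (log2 fold change 3.08, SE 0.14, adjusted p = 1.3e-10). The first osteogenic day gave a difference of -0.71 (adjusted p = 0.002) and the whole osteogenic phase, D28 against D7, one of 0.63 (adjusted p = 0.0021). Both differ beyond the spread between libraries but are under the fold change asked of a call. The GENCODE model of Fgfr2 shares 314 exon bases, 3.04% of its exon length, with Ctbp2 on the same strand.

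Fgfr3 codes for the receptor whose activating mutations cause achondroplasia, and its gene lies at chr5:33721674-33737068 on the plus strand. Its level was 13.83, 13.54 and 13.67 at D7, 13.04, 13.18 and 13.87 at D8, 11.36, 11.35 and 11.63 at D10, and 13.89, 13.69 and 13.44 at D28. The 3 D10 libraries were the lowest of the 12, while D7, D8 and D28 overlapped with each other. The fall from D7 (13.68 ± 0.15) to D10 (11.45 ± 0.16) was 4.70-fold, a log2 fold change of -2.23 (SE 0.18, adjusted p = 1.7e-07, limma). Between D8 and D10 alone the log2 fold change was -1.92 (adjusted p = 4.7e-06). By D28 the level was 13.68 ± 0.23, higher than at D10 by a log2 fold change of 2.23 (adjusted p = 7.7e-08). The difference between D28 and D7 was -0.0031, with a 95% interval from -0.39 to 0.39. Exons of Fgfr3 share 998 bases with a short model on the opposite strand, G630022F23Rik, whose mean level was between 3.74 and 4.95.

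Fgfr4, known from liver and muscle rather than from cartilage, lies at chr13:55152640-55168759 on the plus strand and was the least expressed receptor. Its level was 5.89, 5.24 and 5.89 at D7, 5.37, 5.12 and 5.68 at D8, 0, 2.03 and 1.97 at D10, and 3.37, 4.12 and 4.22 at D28. Every D10 library was under every other library, and every D28 library was under every D7 and D8 library. The D10 libraries held 0, 2 and 2 reads, 4 in all, against 138 reads over the D7 libraries. Corrected for depth, the D10 rate was 33.1-fold lower than at D7, with a counting interval from 12.7 to 123 (95%, counting error only), and 24.9-fold lower than at D8 (interval 9.46 to 92.7). At D28 it was 11.9-fold above D10 (interval 4.45 to 45.1). The fitted log2 fold changes, which depend on the pseudocount at such counts, were -4.34 for D10 against D7 (SE 0.51, adjusted p = 6.3e-06, limma) and 2.57 for D28 against D10 (adjusted p = 0.00052). With all values under the level of 3 reads raised to it, these differences shrank to -2.80 and 1.03, the latter just over the fold change asked of a call. Fgfr4 was called lower at D28 than at D7, with means of 3.90 ± 0.46 and 5.67 ± 0.38 and a log2 fold change of -1.77 (adjusted p = 0.012). That call is lost when D28 replicate 1 is left out (adjusted p = 0.053) or with a pseudocount of 0.1 (adjusted p = 0.17). The call for D28 against D8 (-1.49, adjusted p = 0.028) is lost without D8 replicate 1, D8 replicate 3 or D28 replicate 1 (adjusted p from 0.065 to 0.11) and with that pseudocount (adjusted p = 0.24). The summed level of 8 skeletal muscle markers went from between 11.74 and 12.04 at D7 to between 7.09 and 8.04 at D28, where Fgfr4 was also lower. From D10, when the sum was 8.66 to 9.09, to D28 it was lower again, while Fgfr4 was called higher. The part of muscle RNA in these differences was not tested.

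Fgfr1, at chr8:25513654-25575718 on the plus strand, codes for the main receptor of mesenchymal and bone-forming cells. Its level was 12.60, 12.29 and 12.76 at D7, 12.87, 12.70 and 12.97 at D8, 12.12, 12.54 and 12.54 at D10, and 13.57, 13.10 and 13.13 at D28. The 3 D28 libraries were the highest of the 12, and D7 overlapped with both D8 and D10. No difference in Fgfr1 reached the fold change asked of a call. The difference was 0.87 for D28 against D10 (SE 0.16, adjusted p = 0.00025, limma), 0.71 for D28 against D7 (adjusted p = 0.0021), and -0.15 for D10 against D7 (adjusted p = 0.48, 95% interval -0.49 to 0.18). In order of level, D28 (13.27 ± 0.26) stood first, then D8 (12.85 ± 0.13), D7 (12.55 ± 0.24) and D10 (12.40 ± 0.24), and the neighbours D8 and D7, and D7 and D10, did not differ beyond their spread.

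**Figure D2:**
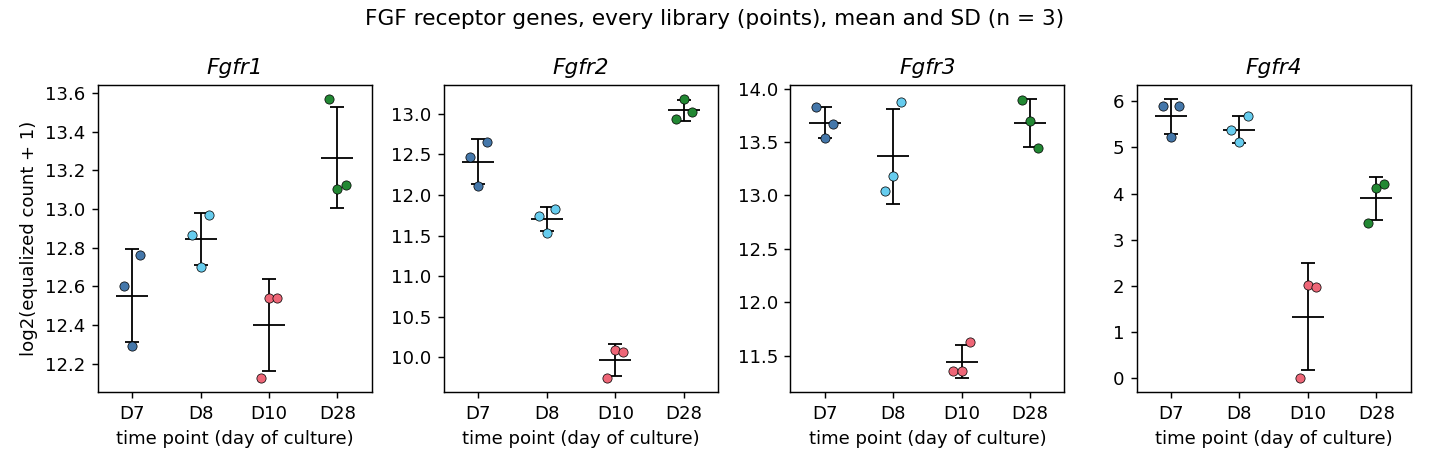
Log2 level (vertical axis, log2 of equalized count plus 1, a separate scale for each gene) of the 4 receptor genes in every library at D7, D8, D10 and D28; points are libraries, the long bar is the mean and the whiskers the SD. The D10 libraries of Fgfr2, Fgfr3 and Fgfr4 lie under all other libraries, and those of Fgfr1 overlap with D7.

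The 250 bases before the first RefSeq start (GRCm38.p6) of the members that changed most are shown for what lies upstream of genes that moved in opposite directions between D7 and D10. Of the 10 members, 8 had a window in the table. Capitals mark matches, on either strand, to GGGCGG (a GC box), GCGNGGGCG (the EGR element) or CCGGAA (an ETS element), and a GC box and an EGR element can share bases. The windows are chr7:130266809-130267058 on the minus strand for Fgfr2, chr5:33721474-33721723 on the plus strand for Fgfr3, chr13:55152568-55152817 on the plus strand for Fgfr4, chr3:37348403-37348652 on the plus strand for Fgf2 and chr13:118714449-118714698 on the plus strand for Fgf10.
Fgfr2: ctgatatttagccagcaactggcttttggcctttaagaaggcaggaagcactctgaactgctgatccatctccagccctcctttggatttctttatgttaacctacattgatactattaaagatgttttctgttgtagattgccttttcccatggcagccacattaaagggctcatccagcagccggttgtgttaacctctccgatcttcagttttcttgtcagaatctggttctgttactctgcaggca
Fgfr3: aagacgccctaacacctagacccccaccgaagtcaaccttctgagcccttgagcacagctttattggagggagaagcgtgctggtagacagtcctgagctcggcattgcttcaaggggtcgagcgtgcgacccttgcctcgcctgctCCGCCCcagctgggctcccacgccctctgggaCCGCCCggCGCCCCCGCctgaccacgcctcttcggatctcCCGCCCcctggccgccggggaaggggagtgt
Fgfr4: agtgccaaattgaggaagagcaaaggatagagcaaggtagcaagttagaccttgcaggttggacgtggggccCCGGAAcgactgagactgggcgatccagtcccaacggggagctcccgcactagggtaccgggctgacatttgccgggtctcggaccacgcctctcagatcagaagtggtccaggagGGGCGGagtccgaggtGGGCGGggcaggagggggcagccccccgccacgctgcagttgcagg
Fgf2: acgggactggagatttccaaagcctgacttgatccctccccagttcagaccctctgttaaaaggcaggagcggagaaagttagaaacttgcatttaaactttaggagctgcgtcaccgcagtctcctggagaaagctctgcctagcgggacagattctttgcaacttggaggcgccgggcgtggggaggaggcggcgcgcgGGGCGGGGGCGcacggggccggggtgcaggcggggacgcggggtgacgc
Fgf10: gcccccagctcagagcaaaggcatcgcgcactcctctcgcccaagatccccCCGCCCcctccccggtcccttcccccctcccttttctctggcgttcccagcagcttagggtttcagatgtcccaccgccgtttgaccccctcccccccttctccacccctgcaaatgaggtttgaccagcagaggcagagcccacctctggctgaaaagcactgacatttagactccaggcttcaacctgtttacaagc

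Fgfr2 and Fgfr3 both fell to D10 and rose to D28, and their windows differ in make-up. The Fgfr2 window is 44.0% G and C with 2 CpG dinucleotides and holds none of the 8 motifs searched, while the Fgfr3 window is 66.8% G and C with 19 CpG, 3 GC boxes and 1 EGR element. RefSeq gives Fgfr3 another start, whose window is 72.8% G and C with 24 CpG and 2 GC boxes and holds no EGR element. Over all 32851 windows of the table the median was 52.4% G and C with 6 CpG. The Fgfr4 window holds 2 GC boxes and 1 ETS element, that of Fgf2 holds 1 GC box and 1 EGR element on shared bases, and that of Fgf10 holds 1 GC box. A GC box was found in 32.7% of all windows, an EGR element in 4.70% and an ETS element in 12.03%. The other motifs searched, on both strands, were the core promoter element TATAAA, the AP-1 element TGANTCA, the cyclic AMP response element TGACGTCA, the RUNX element TGTGGT and the SOX element ACAATG, and none of them is in these 5 windows. A match is a stretch of letters and not evidence of binding.

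The make-up of the receptor transcripts also differed between time points, since Fgfr2 and Fgfr3 were called lower at D10 and Fgfr1 was not. Levels were compared between genes after division of the unlogged value by the exon length in kb. On that scale Fgfr3 made up 61.4% ± 3.37 of the summed receptor level at D7, 57.7% ± 6.15 at D8, 37.7% ± 3.36 at D10, then 50.0% ± 2.16 at D28. Fgfr1 made up 20.4% ± 1.59, 29.3% ± 4.22, 52.9% ± 2.97 and 27.4% ± 2.77 at the same time points. Fgfr1 was the leading receptor gene at D10 and Fgfr3 at the other 3 time points, also when the longest transcript was taken as the length. The share of Fgfr2 was 17.7% ± 1.75 at D7, 12.6% ± 1.91 at D8, 9.35% ± 0.42 at D10, then 22.5% ± 3.61 at D28, and Fgfr4 did not exceed 0.522% in any library. The log2 of the summed receptor level per kb was 11.54 ± 0.17 at D7, 11.33 ± 0.30 at D8, 10.02 ± 0.18 at D10, then 11.84 ± 0.17 at D28. The size of each share depends on the length used.

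The difference between receptor genes within a library needs no gene length, since length cancels between time points. Fgfr1 minus Fgfr2 was 0.14 at D7, 1.15 at D8, 2.43 at D10, then 0.22 at D28, and Fgfr1 minus Fgfr3 was -1.13, -0.52, 0.95 and -0.41. Fgfr2 minus Fgfr3 moved least, with -1.27 at D7, -1.67 at D8, -1.48 at D10, then -0.63 at D28. Each of the 6 receptor pairs differed over the 4 time points in an exact permutation test (369600 arrangements of the libraries, no direction). The p adjusted over the 6 pairs lay between 0.00039 and 0.0082 in that test. The pair tests were added after the levels were seen, and the lowest raw p, 6.5e-05 for Fgfr1 against Fgfr4, is the smallest the arrangements can give.

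**Figure D3:**
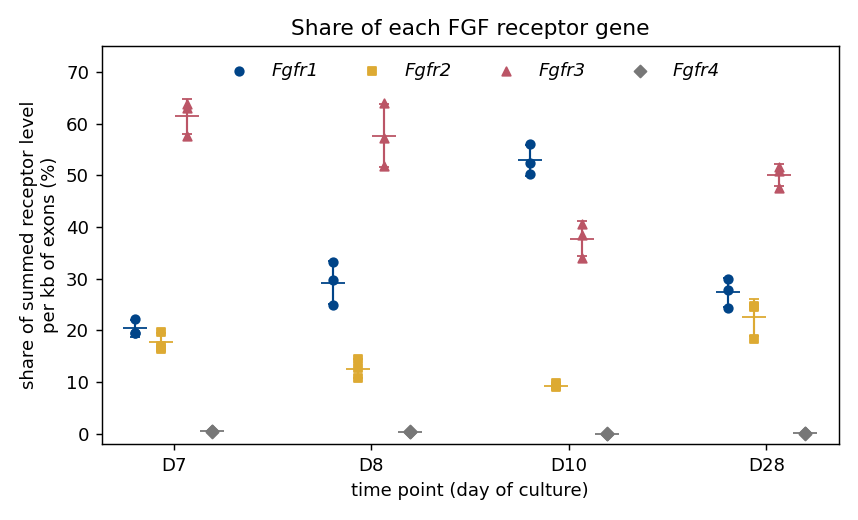
Share of each receptor gene in the summed receptor level per kb of exon (vertical axis, percent) at D7, D8, D10 and D28; points are libraries, the long bar is the mean and the whiskers the SD (n = 3). Fgfr3 leads at D7, D8 and D28, and Fgfr1 leads in every D10 library with 50.2% to 56.1%.

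Fgf2, the ligand stored in cartilage and bone matrix, was highest at D10. The gene lies at chr3:37348346-37410108 on the plus strand. Its level was 9.94, 9.74 and 9.66 at D7, 10.29, 10.29 and 10.11 at D8, 10.50, 11.16 and 11.24 at D10, and 10.26, 9.99 and 10.06 at D28. All 3 D10 libraries were above the other 9, and D8 and D28 overlapped. From D7 (9.78 ± 0.14) to D10 (10.97 ± 0.41) it rose 2.28-fold (log2 fold change 1.19, SE 0.16, adjusted p = 2.9e-05, limma). The differences of 0.74 for D10 against D8 (adjusted p = 0.0033) and -0.86 for D28 against D10 (adjusted p = 0.00033) did not reach the fold change asked of a call, and the latter was called without D10 replicate 1 (-1.10). Its exons share 640 bases, 9.44% of their length, with Nudt6 on the opposite strand, whose mean level lay between 3.35 and 4.67. Fgfr1 and Fgf10 share 164 and 123 exon bases with antisense models. If the counting ignored strand, reads of such pairs cannot be told apart, and that setting is not given in the sources used here.

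Fgf10 rose at D10 and was still high at D28. It codes for the mesenchymal ligand that drives limb bud and lung outgrowth, and the gene lies at chr13:118669791-118792115 on the plus strand. Its level was 3.93, 4.49 and 4.00 at D7, 5.18, 3.39 and 3.71 at D8, 7.07, 5.74 and 6.06 at D10, and 6.80, 7.13 and 6.61 at D28. Every library of D10 and D28 was above every library of D7 and D8, and within each of these pairs of time points the libraries overlapped. The rise from D7 (4.14 ± 0.31) was 4.44-fold by D10 (log2 fold change 2.15, SE 0.44, adjusted p = 0.0011, limma) and 6.52-fold by D28 (log2 fold change 2.71, adjusted p = 0.00018). D28 against D10 gave 0.55 (adjusted p = 0.31), with a 95% interval from -0.39 to 1.50. The summed level of 6 adipocyte markers was 11.91 to 12.14 at D7, 9.72 to 10.38 at D10, where 1 of them was at 0 in all libraries, and 15.33 to 15.80 at D28. Its part in the rise of Fgf10 was not tested.

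Fgf1, a ligand that binds all FGF receptors, was the single member called after the first osteogenic day. Its level was 7.63, 7.50 and 7.56 at D7, 6.00, 6.98 and 6.67 at D8, 6.36, 6.85 and 7.03 at D10, and 8.26, 7.19 and 7.76 at D28. The D8 and D10 libraries overlapped with each other and lay under all of D7 and D28. From D7 (7.57 ± 0.06) to D8 (6.55 ± 0.50) it fell by 1.01 on the log2 scale (SE 0.28, adjusted p = 0.019, limma), and at D28 (7.73 ± 0.54) it was above D8 by 1.18 (adjusted p = 0.0034). The D8 call sits at the fold change threshold, and without D8 replicate 1 the difference was -0.74 (adjusted p = 0.11), while without D7 replicate 1 it was -0.98 (adjusted p = 0.064). The call for D28 against D8 likewise fell under the fold threshold without D8 replicate 1 (0.91) or without D28 replicate 1 (0.92). D28 against D10 gave 0.99 (adjusted p = 0.0086), just short of a call, and it became one without D10 replicate 2, D10 replicate 3 or D28 replicate 2 (1.04 to 1.26).

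Fgf7, at chr2:126034658-126091185 on the plus strand, codes for keratinocyte growth factor, which mesenchymal cells secrete. Its level was 8.96, 9.10 and 8.77 at D7, 9.81, 9.65 and 9.40 at D8, 9.57, 9.94 and 9.72 at D10, and 9.58, 9.44 and 9.59 at D28. Every D7 library was under the other 9, which overlapped with each other. The difference from D7 (8.94 ± 0.17) was 0.68 at D8 (adjusted p = 0.0022, limma), 0.80 at D10 (adjusted p = 0.00019) and 0.60 at D28 (adjusted p = 0.0025), none of them a call.

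The ligands best known from the growth plate, Fgf9 and Fgf18, were read from few counts. Fgf9, at chr14:58070547-58112720 on the plus strand, had levels of 2.03, 2.52 and 3.45 at D7, 2.03, 2.17 and 1.46 at D8, 3.76, 3.76 and 3.82 at D10, and 1.81, 0.87 and 1.81 at D28. The D10 libraries were the highest of the 12, with 6 to 9 reads each, against 1 to 7 reads in the others. In all, 23 reads at D10 stood against 8 at D8, a rate 3.44-fold higher with a counting interval from 1.49 to 8.90. The fitted log2 fold change was 1.90 for D10 against D8 (SE 0.50, adjusted p = 0.01, limma) and -2.29 for D28 against D10 (adjusted p = 0.0012). With all values under the level of 3 reads raised to it, the differences shrank to 0.91 and -0.91, under the fold change asked of a call. Against D7 the difference was 1.12 at D10 (adjusted p = 0.088) and -1.17 at D28 (adjusted p = 0.08), and each became a call without 1 of the D7 libraries, replicate 3 for the former (1.51) and replicate 1 for the latter (-1.49). Fgf18, at chr11:33117430-33147400 on the minus strand, had 5 to 17 reads per library and levels between 2.50 and 4.45. Its mean was 3.51 ± 0.56 at D7, 3.36 ± 0.78 at D8, 3.99 ± 0.52 at D10, then 3.24 ± 0.41 at D28, the libraries of neighbouring time points overlapped, and no difference was detectable at this depth (adjusted p between 0.21 and 0.87 in the 6 comparisons, limma). The 95% interval for D10 against D7 ran from -0.56 to 1.52.

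Per kb of exon, Fgf2 and Fgf7 together made up most of the summed level of the 6 ligands at every time point. The share of Fgf2 was 39.3% ± 2.78 at D7, 39.4% ± 1.81 at D8, 48.1% ± 5.90 at D10, then 34.9% ± 1.02 at D28, and that of Fgf7 was 45.9% ± 2.94, 53.8% ± 1.86, 42.9% ± 3.75 and 49.3% ± 2.17. Fgf10 went from 1.11% ± 0.23 at D7 to 5.45% ± 1.38 at D28. Fgf18 lay between 1.61% and 2.85% on average, and Fgf9 at no more than 0.449% on average. The log2 of the summed ligand level per kb was 8.37 ± 0.10 at D7, 8.82 ± 0.17 at D8, 9.27 ± 0.23 at D10, then 8.86 ± 0.11 at D28, so its highest time point was the one at which the summed receptor level was lowest.

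**Figure D4:**
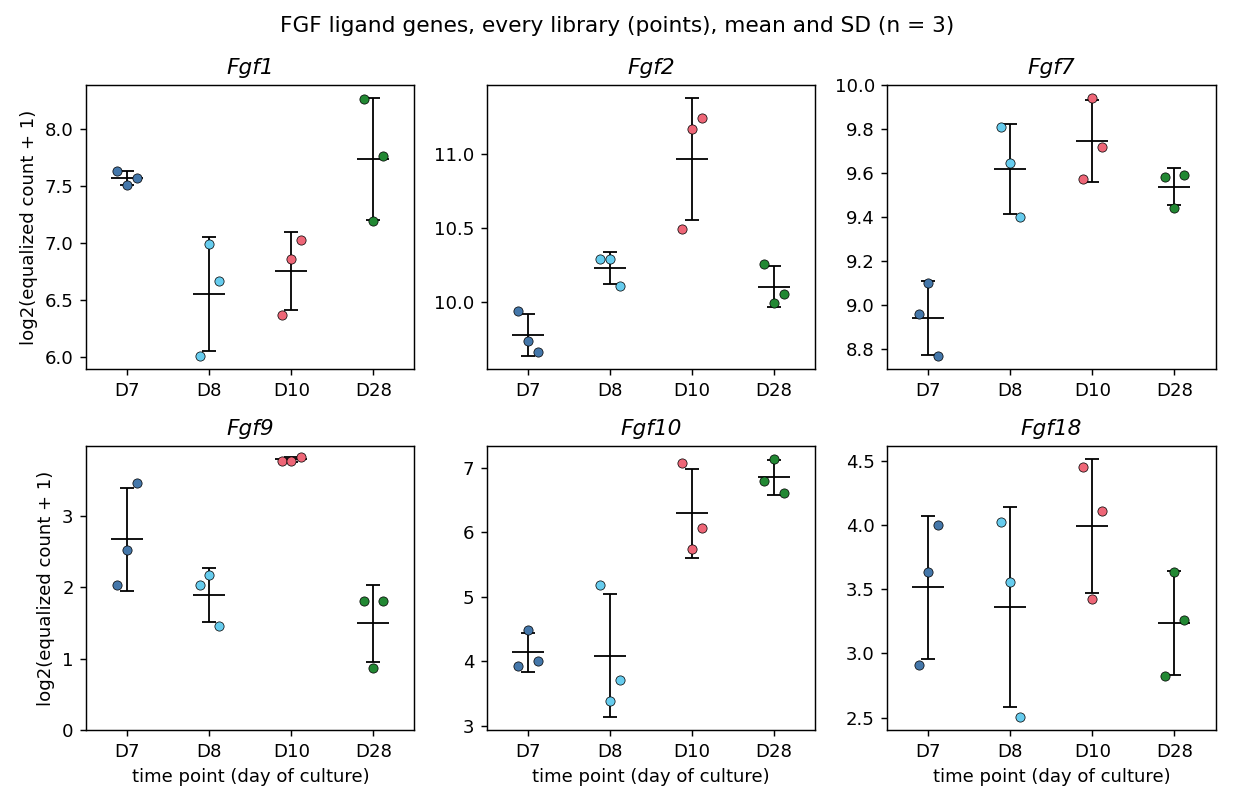
Log2 level (vertical axis, log2 of equalized count plus 1, a separate scale for each gene) of the 6 ligand genes in every library at D7, D8, D10 and D28; points are libraries, the long bar is the mean and the whiskers the SD (n = 3). The D10 libraries of Fgf2 and Fgf9 lie above all others, those of Fgf10 lie with D28, and Fgf18 overlaps at all time points.

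For each member that was called at least once, the genes most like it over the 12 libraries were taken from the 12181 genes with a mean level of at least 5. This is a description across libraries that share time points, and no test was made. For Fgfr3 they were Sox8 (Pearson r = 0.996), Klf2 (0.991) and Chadl (0.985), and for Fgfr2 they were Serpina3n (0.995), Tmem176b (0.993) and Fmod (0.993). For Fgfr4 the closest was Emilin1 (0.977), for Fgf10 Glipr1 (0.948), for Fgf2 Akr1b3 (0.934), for Fgf9 Tstd2 (0.932) and for Fgf1 Wdr5b (0.910).

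The receptors also need partners at the cell surface. Of 18 tested genes for co-receptors, heparan sulfate proteoglycans and ligand carriers, 0 were called higher and 6 lower at D10 against D7, where 10.4% of all genes were lower, with a median log2 fold change of -0.43 against 0.05 over all genes tested. Without D7 replicate 3 the count was 3. Fgfbp1, a carrier that releases FGFs from matrix, fell by 4.33 in the fit (SE 0.47, adjusted p = 3.3e-06, limma), to between 1 and 4 reads per library, and the size of such a fall depends on the pseudocount. Gpc3, a glypican that carries heparan sulfate, fell by 2.31 (adjusted p = 1.6e-06), and Fgfrl1, a receptor-like gene whose protein lacks the kinase, fell by 1.58 (adjusted p = 3.7e-07). At D28 against D10, 4 of the 18 were higher and 2 lower, where 13.8% and 13.7% of all genes were. Gpc3 rose by 2.60 and Gpc4, another glypican, by 2.30 (adjusted p = 2.4e-07 and 2.7e-09). Klb, the co-receptor of the hormone Fgf21, was listed at 0 in all D10 libraries and stood at 4.51, 4.74 and 5.53 at D28, with 35 to 68 reads, and with at most 4 reads in any D7 or D8 library.

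Of 14 tested enzymes that make and edit heparan sulfate, 3 were called lower and 0 higher at D10 against D7, where 10.4% of all genes were lower. Hs3st3a1, a sulfotransferase that adds the rare 3-O sulfate, was at 8.10, 7.95 and 7.86 at D7, 3.54, 3.58 and 2.79 at D10, and 10.33, 8.93 and 9.03 at D28. It was lowest in the D10 libraries, at 4 to 7 reads, and highest in those of D28, with no overlap. The log2 fold change was -4.66 from D7 to D10 (SE 0.34, adjusted p = 5.2e-08, limma) and 6.12 from D10 to D28 (adjusted p = 1e-09), and at so few D10 reads both sizes depend on the pseudocount. Sulf2, which removes sulfate from heparan sulfate outside the cell, fell by 1.81 and then rose by 2.42 (adjusted p = 2.5e-07 and 4.8e-09), and Ext2, a polymerase of the chain, fell by 1.10 (adjusted p = 4.4e-05). At D28 against D10, 3 of the 14 were higher and 1 was lower, Glce (-1.01, adjusted p = 1.6e-06), where 13.8% and 13.7% of all genes were, with a median of 0.07. Without D10 replicate 2 the count called there was 2.

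Of the 16 other FGF ligand genes, 9 passed the filter. At D10 against D7, 0 were called higher and 2 lower, where 10.4% of all genes were lower: Fgf11 (log2 fold change -2.73, adjusted p = 0.00014, limma) and Fgf14 (-2.05, adjusted p = 0.00025), both members of the subfamily that stays inside the cell and binds sodium channels. Fgf21, the metabolic hormone of the family, stood at 10.33, 9.68 and 10.37 at D7 and 6.79, 7.19 and 7.25 at D28. The D28 libraries lay under all others, and the log2 fold change against D7 was -3.05 (SE 0.18, adjusted p = 6.2e-09). Fgf12, also of the intracellular subfamily, was listed at 0 in all D10 libraries, had at most 2 reads in any D7 or D8 library, and stood at 3.45, 4.19 and 4.53 at D28.

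Of 23 tested genes that carry the signal inside the cell, 1 was called higher and 2 lower at D10 against D7, and the median log2 fold change of the list was -0.06. All genes tested gave 8.50% higher and 10.4% lower. Nras, a RAS GTPase, rose by 1.12 (adjusted p = 2.2e-07, limma), while Gab1, a docking protein, and Rps6ka1, a kinase under ERK, fell by 1.17 and 1.11 (adjusted p = 3.8e-05 and 1.9e-05). At D28 against D10, 3 of the 23 were higher and 1 was lower, where 13.8% and 13.7% of all genes were. Among these Gab1 rose by 1.73 and Mapk3, which codes for ERK1, by 1.07 (adjusted p = 3.9e-07 and 8.5e-07), and Nras fell by 1.11 (adjusted p = 1.1e-07).

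Genes that dampen FGF and other ERK signals were mostly higher at D10, where Fgfr2, Fgfr3 and Fgfr4 were lower. Of 14 feedback inhibitor genes, 4 were called higher at D8 against D7, 7 at D10 against D8 and 10 at D10 against D7, with 0 lower in each. Over all genes tested, 3.23%, 4.08% and 8.50% were called higher in these comparisons. At D28 against D10, 0 of the 14 were higher and 6 lower, where 13.7% of all genes were lower. The median log2 fold change of the list was 1.28 at D10 against D7. Dusp6, a phosphatase of ERK, was at 6.93, 7.08 and 7.00 at D7, 8.10, 7.90 and 7.92 at D8, 9.68, 9.23 and 9.43 at D10, and 9.20, 8.59 and 9.28 at D28. The libraries of D7, D8 and D10 did not overlap with each other, and D28 overlapped with D10. Its log2 fold change was 2.45 at D10 against D7 (SE 0.18, adjusted p = 5.1e-08, limma) and still 2.02 at D28 against D7 (adjusted p = 3.6e-07). Dusp5, a nuclear ERK phosphatase, rose by 2.91 at D10 and was at 0.20 against D7 by D28 (adjusted p = 0.47). Il17rd, which codes for the FGF receptor antagonist Sef, fell by 2.89 from D10 to D28 (adjusted p = 1.4e-06) and ended lower than at D7, by 1.63 (adjusted p = 0.00064). Other pathways that reach ERK induce the same genes, and no value here separates them.

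Of 11 tested ETS and early target genes, 3 were called higher at D8 against D7 and 7 at D10 against D7, with 0 lower in both, and 4 were called lower at D28 against D10 with 0 higher. Over all genes tested, 3.23% and 8.50% were higher in the former comparisons and 13.7% were lower in the latter. Etv4, an ETS factor used as a readout of FGF signalling, was at 4.04, 4.43 and 3.87 at D7, 7.34, 7.26 and 6.72 at D8, 7.77, 7.11 and 7.64 at D10, and 4.98, 4.81 and 4.76 at D28. The D8 and D10 libraries overlapped and lay above all of D7 and D28. Its rise was already 3.00 at D8 (SE 0.27, adjusted p = 4.1e-06, limma). The largest difference at D8 against D7 was -0.71 among the receptor genes (Fgfr2) and -1.01 among the ligands (Fgf1). A link of either to Etv4 was not tested. From D10 to D28 Etv4 fell by 2.66 (adjusted p = 9.4e-07). Etv5, its close relative, rose by 1.80 at D8 and stayed up at D28, with a log2 fold change of 2.79 against D7 (adjusted p = 3e-08). Etv4 was at 0.74 against D7 by then (adjusted p = 0.045), under the fold change asked of a call, and the difference between these genes was not tested.

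The gene-level values do not separate the epithelial (IIIb) and mesenchymal (IIIc) forms of the receptors, which differ in the ligands they bind. Of the splicing factors that favour the IIIb exon, Esrp2 rose at D10 against D7 by 1.63 (SE 0.38, adjusted p = 0.003, limma), from 7 to 16 reads per library at D7 to between 20 and 27 at D10, and Esrp1 was not called in any comparison (adjusted p from 0.76 to 0.93). Of 5 epithelial markers 1 was called there, Krt18, where 8.50% of all genes were called higher, with a log2 fold change of 3.33 (adjusted p = 7.4e-05), and the median of the list was -0.42. Epcam, a surface protein of epithelia, was at -0.42 (adjusted p = 0.59). The part of epithelial RNA in the rise of Esrp2 was not tested.

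Markers of several cell types were also lower at D10, where Fgfr2, Fgfr3 and Fgfr4 were lower, and some of these lists were higher again at D28 while others were not. At D10 against D7, 0 of 10 chondrocyte markers were called higher and 7 lower, with a median log2 fold change of -1.71, and at D28 against D10 6 were higher and 0 lower. Over all genes tested, 8.50% were called higher and 10.4% lower at D10 against D7, and 13.8% and 13.7% at D28 against D10. Of 4 hypertrophic markers 3 were lower at D10 against D7, with 3 higher and 1 lower at D28 against D10, and of 5 tendon and perichondrium markers 3 were lower, while the summed level of these 5 was 15.79 to 16.09 at D7 and 13.36 to 14.07 at D10. The skeletal muscle list had 7 of 8 lower at D10 against D7, and the adipocyte list 6 of 6. At D28 against D10, the adipocyte list had 6 of 6 higher, the muscle list 0 higher and 3 lower, and the tendon and perichondrium list 1 higher and 2 lower. Of 8 osteoblast markers, 3 were higher and 4 lower at D10 against D7, and 4 were higher and 0 lower at D28 against D10. Of 6 macrophage and blood markers, 4 were higher and 1 lower at D28 against D10, and D28 replicate 2 stood apart, with Csf1r at 7.92 against 4.72 and 5.13 in the other D28 libraries. Of 5 proliferation markers, 0 were higher and 3 lower there. The part of these lists in the fall of Fgfr2, Fgfr3 and Fgfr4 was not tested.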

How the data were processed

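Deposited values were log2 of the equalized count plus 1 (the authors' unit), 1 per gene and library. The submitters' processing notes name Trimmomatic 0.36, HISAT2, Cufflinks and HTSeq and the build GRCm38. The supplementary methods name hg38, while the genes are mouse symbols, and positions here are those of GRCm38. The library kit keeps strand, and the strand setting of the counting is not given in the sources used here. Original totals are not kept. Reads of low genes were taken as the rank of a value in the ordered set of levels seen in that library, which covers counting error only. Genes with a value of 1 or more in 3 or more libraries were fitted with limma 3.58.1 (R 4.3.3, 1 coefficient per time point, variance trend, 8 residual degrees of freedom), with two-sided p-values and 6 comparisons. The fit was tested on simulated data. Lengths, overlaps and permutation tests used Python 3.11.15 (numpy 2.4.6, pandas 2.3.3), and plots matplotlib 3.10.9. The genes named are all members, at most 4 called genes without overlap per pathway list and comparison, and up to 3 genes most like each called member. Values are also given for Esrp1, for genes sharing exons with members and for genes listed at 0, chosen after the values were seen. A gene that this rule would name is not reported here, for a reason unrelated to its values. The members and lists were chosen with earlier results of these data known, and no list gets a test of its own. Alternatives covered filters, scaling, pseudocount, a floor at 3 reads, a replicate block, the fold threshold, gene length and each library left out in turn. No batch or date is given in the labels.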

Additional observations from a re-analysis of the deposited data

How the results depend on the processing

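The calls of Fgfr2, Fgfr3 and Fgfr4 at D10 against D7, D10 against D8 and D28 against D10, and of Fgf10 at D10 and D28 against D7 and D8, held in every alternative run. The sources used here do not say whether the replicate numbers pair the libraries. None of 18 correlations between deviations of same-numbered libraries exceeded 0.1 (from -0.058 to 0.066), and 3 of 12 libraries correlated best with their own number. With 3 libraries per time point, such correlations cannot exclude a pairing. With the replicate block the count of members called was 5 at D10 against D7, 4 at D28 against D10 and 1 at D8 against D7, as without it. With no fold change threshold the members called were 3 at D8 against D7, 5 at D28 against D7 and 7 at D28 against D10. Of the 91 pathway genes tested, that setting called 28 at D8 against D7, 39 at D10 against D8, 53 at D10 against D7, 63 at D28 against D10, 44 at D28 against D7 and 48 at D28 against D8, and of all genes tested it called 21.0%, 28.8%, 41.2%, 52.4%, 37.3% and 41.3% in the same order. With a pseudocount of 0.1, 1 member was called at D28 against D7. At D8 against D7, 0 members were called with low values raised to the 3-read level or with no variance trend, since Fgf1 was lost (adjusted p = 0.056 and 0.051, limma). Leaving out each library in turn gave from 1 to 3 members called at D28 against D7, from 2 to 4 at D28 against D8 and from 0 to 1 at D8 against D7, and the lowest counts came without D28 replicate 1, without D8 replicate 1 or D28 replicate 1, and without D7 replicate 1 or D8 replicate 1. Among the members, signs turned only where no call was made: Fgf7 at D28 against D8 (0.027 with median-of-ratios scaling) and Fgfr3 at D28 against D7 (0.054 with that scaling). Fgf9 at D28 against D8 became 0 with low values raised, since both groups then sat on the floor. Leaving out libraries turned Fgf1 at D10 against D8 (range -0.077 to 0.41) and at D28 against D7 (-0.094 to 0.44), Fgf10 at D8 against D7 (-0.60 to 0.30), Fgf18 at D28 against D8 (-0.55 to 0.21) and at D8 against D7 (-0.49 to 0.27), Fgf7 at D28 against D8 (-0.19 to 0.015) and Fgfr3 at D28 against D7 (-0.11 to 0.11). Apart from the shifts stated to follow from the loss of Fgf1, the cause was not tested. Fgf9 had no value under a filter on a mean of at least 3. Depth limits Fgfr4 at D10, Fgf9 and Fgf18, whose levels rest on few reads.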
